A study of Arabidopsis thaliana with 24 samples.

Results

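The 10 genes described here form the core of the Arabidopsis iron deficiency response: the peptide genes IMA1 (AT1G47400), IMA2 (AT1G47395) and IMA3 (AT2G30766), the 4 subgroup Ib bHLH genes bHLH38 (AT3G56970), bHLH39 (AT3G56980), bHLH100 (AT2G41240) and bHLH101 (AT5G04150), FIT (AT2G28160), and the uptake genes IRT1 (AT4G19690) and FRO2 (AT1G01580). They were taken by locus from a table of 34212 genes. IMA3 was chosen by its measured level: it ranked among the largest rises after 24 h of BAP, and so its contrast of BAP with DMSO at 24 h, and every contrast that shares those libraries, is given for it without a test. The other 9 genes belong to the same pathway, and for them the comparisons of BAP or EST + BAP with DMSO at 24 h are likewise given as values only. A member is also given without a test wherever it passed the filter on low counts through a single group. That is, 1 group had all its libraries at the filter's minimum and no other group did. Such a filter favours members that differ, although the other group could come close to the minimum. In EST + BAP against DMSO at 4 h, bHLH38 had 2 libraries at the minimum in EST + BAP and 3 in DMSO, with a log2 fold change of -0.22. The members given without a test include some of the largest changes. IMA3, which at 4 h was too low to fit, is among them at 24 h, so that it is tested in no comparison.

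RNA was sequenced from root segments of 9-d-old plants of the pANT:XVE>>axr3-1-YFP line, in which estradiol (EST) switches on axr3-1, a dominant negative repressor of auxin signaling, under the promoter of the cambium gene ANT. The line is homozygous for a single insertion, and whole root segments were sampled, so cells that do not induce axr3-1 are part of every library. Plants received 5 µM EST with 1 µM of the cytokinin BAP, BAP alone, EST alone, or the solvent DMSO, for 4 h or 24 h, with 3 libraries in each of the 8 groups. All groups carry the transgene, and the DMSO and BAP groups differ from the others in lacking estradiol. The 4 h and 24 h groups came from separate experiments, so a difference between the times cannot be told apart from a difference between the experiments.

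IMA peptides are short peptides that rise in iron-starved plants and bind the E3 ligases BTS and BTSL, which otherwise mark upstream bHLH factors for degradation. Those factors switch on the subgroup Ib bHLH genes, whose products pair with FIT. The FIT complexes activate FRO2, the root ferric-chelate reductase, and IRT1, the ferrous iron transporter, chiefly in the root epidermis. In iron-deficient roots the whole set is known to rise together.

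The coding sequences of the 3 IMA genes are shown because these small genes, with 50, 50 and 47 codons before the stop, include the gene chosen by its rise, and because IMA1 and IMA2 resemble each other closely. They were read from the TAIR10.1 genome by the RefSeq annotation, 5′ to 3′. The capitals mark the last 17 codons and the stop codon, which encode the conserved end of the peptide.
IMA1: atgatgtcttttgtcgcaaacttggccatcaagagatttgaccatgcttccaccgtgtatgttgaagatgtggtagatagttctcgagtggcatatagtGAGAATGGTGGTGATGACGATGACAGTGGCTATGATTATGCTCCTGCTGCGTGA
IMA2: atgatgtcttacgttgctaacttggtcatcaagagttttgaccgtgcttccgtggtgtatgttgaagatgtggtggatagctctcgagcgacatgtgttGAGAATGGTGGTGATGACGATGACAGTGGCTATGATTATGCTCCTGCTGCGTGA
IMA3: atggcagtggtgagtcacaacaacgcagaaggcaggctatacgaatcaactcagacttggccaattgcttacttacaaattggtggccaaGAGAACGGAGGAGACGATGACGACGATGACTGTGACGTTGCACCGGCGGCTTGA
In capitals IMA1 and IMA2 were identical at 54 of 54 bases, and IMA3 matched each of them at 37 of 54 (68.5%). Before the capitals, IMA1 and IMA2 shared 82 of 99 aligned bases (82.8%) and IMA3 shared 45.5% with IMA1 and 42.9% with IMA2. The IMA1 coding sequence lies on the plus strand of chromosome 1 at chr1:17385818-17385970 and that of IMA2 at chr1:17383117-17383269, with 1876 bases between the genes. IMA3 lies at chr2:13108068-13108211, also on the plus strand. Because the transcripts of IMA1 and IMA2 align at 81.0% identity over 369 bases, the division of reads between them is less certain than their sum. The same holds for bHLH38 and bHLH39, neighbours on chromosome 3 that are 1144 bases apart and 86.2% identical over 441 bases. The IMA3 gene model also overlaps AT2G30760 by 639 bases and CYP71A13 by 572 bases on the opposite strand. On the opposite strand too, bHLH38 overlaps PIP5K4 by 386 bases and bHLH101 overlaps GLU1 by 79 bases. PIP5K4 had 42 to 310 counts per library and GLU1 had 62 to 494. In part, the IMA3 transcript resembles AT2G30750 (88.0% identity over 401 bases) and AT1G11610 (83.3% over 430 bases). The division of reads among these genes is likewise less certain.

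Upstream windows of bHLH38 and bHLH100 are shown since these are the only members with a G-box (CACGTG, the hexamer bound by many bHLH proteins) in the 250 bases before the annotated gene start, and both are on the minus strand of TAIR10.1. Capitals mark every E-box (CANNTG, which includes the G-box), searched on both strands. bHLH38 is read from chr3:21085246-21085495 and bHLH100 from chr2:17199455-17199704.
bHLH38: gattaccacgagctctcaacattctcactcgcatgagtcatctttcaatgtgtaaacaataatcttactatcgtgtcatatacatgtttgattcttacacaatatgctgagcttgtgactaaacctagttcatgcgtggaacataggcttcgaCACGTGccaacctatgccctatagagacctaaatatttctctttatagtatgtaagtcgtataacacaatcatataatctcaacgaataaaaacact
bHLH100: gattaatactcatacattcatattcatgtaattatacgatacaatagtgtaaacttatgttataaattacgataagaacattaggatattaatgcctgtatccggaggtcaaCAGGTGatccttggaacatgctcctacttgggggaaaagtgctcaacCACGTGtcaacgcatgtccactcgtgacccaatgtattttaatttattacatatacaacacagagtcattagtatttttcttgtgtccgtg
A G-box was found in 2 of the 10 windows, against 6.5% of the 27443 windows of the same length in the genome, and an E-box in 7 of the 10, against 55.3%. The motif of the type-B ARR factors of the cytokinin response (AGAT, then A, C or T, then C or T) was also searched. It was in 6 of the 10 windows, against 66.3%. A match describes the letters in the window and is not a binding site.

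Library totals ran from 14514022 to 45586679 counts. Nuclear ribosomal RNA took 54.1% of the counts of DMSO 24 h replicate 1 and 32.5% of BAP 24 h replicate 1, which left 6001669 other nuclear counts in the first of these. The methods report 3 repeats of the experiment at each time, but not whether a replicate number stands for the same repeat in every group. Replicates of every group differed by more than sampling noise, and p-values measure the spread between these libraries. AXR3 counts, which include the transgene, were 1.69 log2 units higher in EST than in DMSO at 4 h (edgeR quasi-likelihood test, adjusted p = 0.0298) and 0.23 higher at 24 h (adjusted p = 0.0720, not passing). With BAP present in both groups, AXR3 was 0.79 higher in EST + BAP than in BAP at 4 h (adjusted p = 0.0282) and lower at 24 h (-0.46, adjusted p = 0.00341). BAP without EST also went with more AXR3 than DMSO, by 1.74 at 4 h (adjusted p = 0.000209) and 1.51 at 24 h (adjusted p = 5.59e-06). AXR3 counts are therefore not a measure of the transgene alone. The cytokinin response gene ARR15 was 2.85 and 3.73 log2 units higher in EST + BAP than in EST at 4 h and 24 h (adjusted p = 0.00676 and 1.05e-05).

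**Figure D1:**
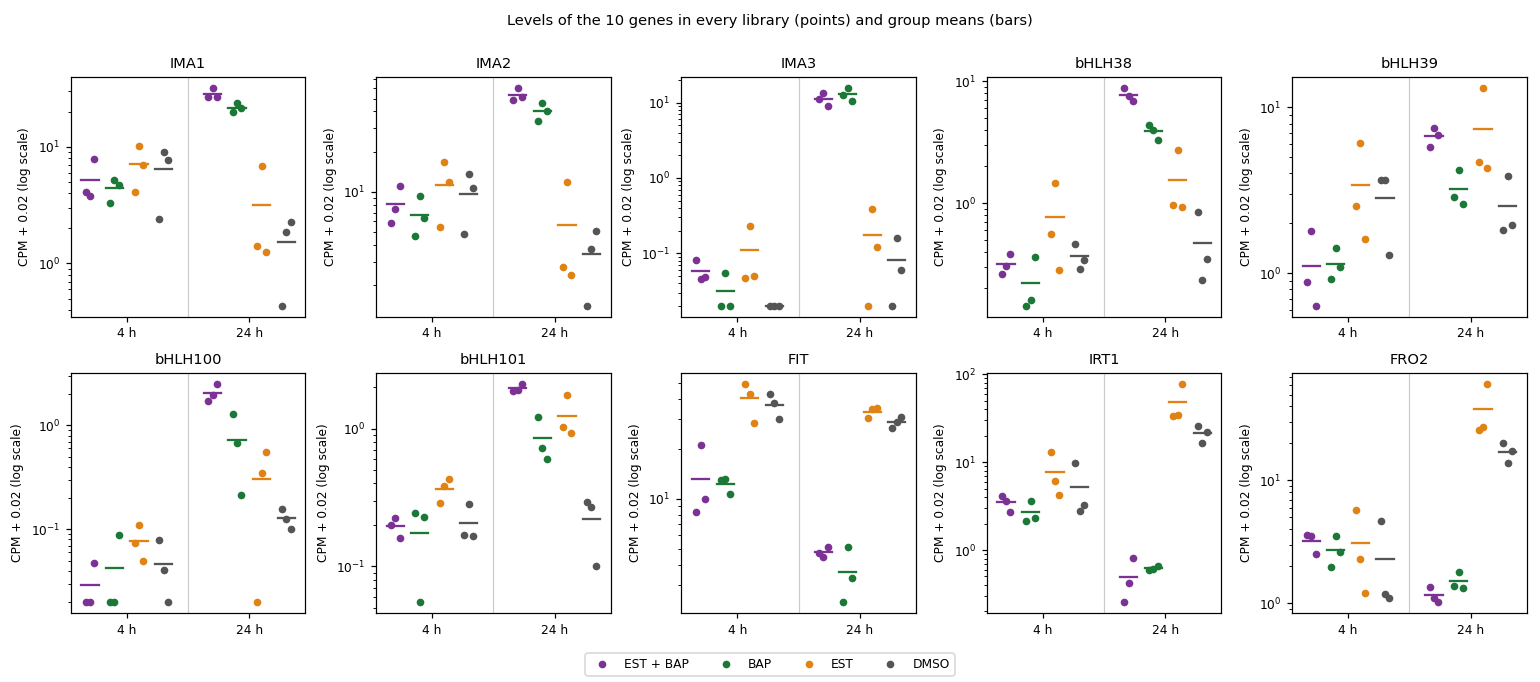
Counts scaled to library size (CPM, with 0.02 added and a log axis) of each of the 10 genes in all 24 libraries, shown for EST + BAP, BAP, EST and DMSO at 4 h on the left of each panel and at 24 h on the right, with points for libraries and bars for group means. At 24 h IMA3 lies between 8.92 and 15.8 CPM in the 6 libraries with BAP and at most at 0.361 CPM in the 6 without it, whereas IRT1 lies at most at 0.787 CPM with BAP and between 16.4 and 78.0 CPM without it.

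After 4 h of BAP, FIT fell. FIT, the bHLH partner of the subgroup Ib factors, had 13.01, 13.2 and 10.6 CPM in BAP libraries and 42.7, 37.5 and 30.0 CPM in DMSO libraries. The groups did not overlap, and the level was lower by a log2 fold change of -1.59 ± 0.15 (SE, n = 3 each, adjusted p = 0.000798, edgeR). Its partner gene bHLH39 had 0.903, 1.40 and 1.07 CPM in BAP libraries and 3.62, 3.61 and 1.26 CPM in DMSO libraries. DMSO replicate 3 thus fell inside the range of the BAP libraries, and the log2 fold change was -1.37 ± 0.41 (adjusted p = 0.0426). Of the 7 members that passed the filter on low counts, these 2 were called lower (a call needs a log2 fold change of 0.5 or more in size with an adjusted p no higher than 0.05), where 7.14% of the 21486 genes tested were called lower, and none was called higher.

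The other 5 members tested at 4 h did not pass. The log2 fold change of BAP against DMSO was -0.57 for IMA1 (95% interval -1.56 to 0.41), -0.55 for IMA2, -0.82 for bHLH38, -1.0 for IRT1 and 0.21 for FRO2. IMA3, bHLH100 and bHLH101 were too low to test. IMA3 had 0, 1 and 0 counts in the BAP libraries and none in the DMSO libraries at 4 h. The call of FIT held without any 1 of the 6 libraries, whereas that of bHLH39 was lost in 5 of the 6 such fits (adjusted p 0.0687 to 0.143), each except the one without DMSO replicate 3. Beside these changes, 2 of 4 periderm and suberin markers were called higher in BAP (summed 216 to 315 CPM in BAP and 131 to 162 CPM in DMSO), as was 1 of 3 cambium markers (222 to 254 CPM in BAP and 132 to 189 CPM in DMSO), 2 of 3 green tissue markers were lower (215 to 259 CPM in BAP and 266 to 492 CPM in DMSO), and none of 7 root hair and epidermis markers was called. Their part in the result was not tested.

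FIT was also lower where axr3-1 was induced. It had 8.29, 20.9 and 9.91 CPM in EST + BAP libraries and 49.2, 42.5 and 28.7 CPM in EST libraries at 4 h, without overlap and with a log2 fold change of -1.64 ± 0.37 (adjusted p = 0.0393). It was the only 1 of the 7 members tested that was called, and 3.39% of all genes were called lower. bHLH101, which passed the filter through EST alone, was at -0.98. In the same comparison 1 of 3 cambium markers (154 to 183 CPM in EST + BAP and 79.9 to 142 CPM in EST) and 1 of 4 periderm and suberin markers (208 to 309 CPM in EST + BAP and 148 to 248 CPM in EST) were higher. With the replicate number as a block, a term that the libraries' deviations warrant in this comparison, bHLH39 (-1.60, adjusted p = 0.00998) and IRT1 (-1.04, adjusted p = 0.0421) were called lower beside FIT (-1.70, adjusted p = 0.0197). Without the block the call of FIT was lost when EST replicate 1, EST replicate 2, EST + BAP replicate 1 or EST + BAP replicate 3 was left out (adjusted p 0.0610 to 0.146).

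Against DMSO at 4 h, EST + BAP libraries also had less FIT, with a log2 fold change of -1.51 ± 0.33 (adjusted p = 0.0237), the only call among 6 members tested (4.65% of all genes were called lower). That call was lost without DMSO replicate 1, DMSO replicate 2, EST + BAP replicate 1 or EST + BAP replicate 3 (adjusted p 0.0543 to 0.0887).

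IRT1 and FRO2 at 4 h varied strongly within the groups that received no BAP. IRT1 had 13.1, 6.08 and 4.18 CPM in EST libraries and 9.85, 2.76 and 3.20 CPM in DMSO libraries, and FRO2 had 5.75, 2.29 and 1.2 CPM in EST libraries and 4.63, 1.18 and 1.09 CPM in DMSO libraries. Replicate 1 was the highest of each group. The summed level of 7 root hair and epidermis markers was also highest in these libraries, at 57.4 CPM in EST replicate 1 and 27.2 CPM in DMSO replicate 1, against 5.75 to 16.5 CPM in the other 4 libraries of these groups. Other lists moved as well. Endodermis markers (46.7 CPM in EST replicate 1 and 25.0 CPM in DMSO replicate 1) were highest there. So were root apical meristem markers (6.74 and 3.21 CPM) and periderm and suberin markers (248 and 162 CPM). Cambium markers (79.9 and 132 CPM) were lowest there, as were phloem, xylem and green tissue markers. The part of these cell types in the result was not tested. Without DMSO replicate 1, FRO2 was called higher in BAP than in DMSO (1.22, adjusted p = 0.0212) and in EST + BAP than in DMSO (1.48, adjusted p = 0.0137), and IMA1 (-0.96, adjusted p = 0.0123) and IMA2 (-0.87, adjusted p = 0.0451) were called lower in BAP than in DMSO.

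EST alone gave no called member at 4 h. None of 7 members was called in EST against DMSO by edgeR or by DESeq2, none had an unadjusted p under 0.05, and 0.0139% of all genes were called. None of 7 was called in EST + BAP against BAP either (0.334% of all genes), again with none at an unadjusted p under 0.05 and none by DESeq2. The interaction of EST and BAP at 4 h was called for 0 of 7 members and for 0 genes in all, with no member at an unadjusted p under 0.05 and none by DESeq2. Intervals were wide, from -2.01 to 1.43 log2 units for the interaction of bHLH39 and from -1.0 to 0.91 for that of FIT.

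After 24 h, BAP on top of EST split the pathway. In EST + BAP libraries IMA1, IMA2 and bHLH38 were higher than in EST libraries, and FIT and FRO2 were lower. These were 3 members called higher and 2 called lower of 7 tested, where 16.5% of the 21490 genes tested were called higher and 13.8% lower. IMA3 and bHLH100 passed the filter through EST + BAP alone and IRT1 through EST alone, so their values are given without a test.

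IMA3 had 11.1, 13.4 and 8.92 CPM in EST + BAP libraries, against 0, 0.361 and 0.101 CPM in EST libraries. These were 1089 counts in all against 14, a ratio of 79.97 with a 95% interval from counting error alone of 47.5 to 147, and 11 of the 14 counts came from EST replicate 2. The fitted log2 fold change was 6.21 ± 0.46 (SE, n = 3 each), without a test. IMA1 had 26.5, 32.0 and 26.8 CPM in EST + BAP libraries and 1.40, 6.75 and 1.24 CPM in EST libraries, a log2 fold change of 3.20 ± 0.48 (adjusted p = 0.000626). IMA2 had 48.4, 60.4 and 51.6 CPM in EST + BAP libraries and 2.71, 11.8 and 2.35 CPM in EST libraries (3.26 ± 0.49, adjusted p = 0.000625). As a description, without a share over all genes, all EST + BAP libraries lay above all EST libraries for each IMA gene. EST replicate 2 was the highest of its group for all 3. The genes that the IMA3 model overlaps stayed low, with at most 6 counts of AT2G30760 and 11 of CYP71A13 in any of the 24 libraries. Levels of AT2G30750 and AT1G11610, which resemble part of the IMA3 transcript, are not given, so reads from them are not excluded.

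The 4 subgroup Ib bHLH genes did not move alike. bHLH38 had 8.87, 7.58 and 6.86 CPM in EST + BAP libraries and 0.949, 2.72 and 0.907 CPM in EST libraries, with a log2 fold change of 2.35 ± 0.35 (adjusted p = 0.000623). bHLH100 had 1.69, 1.95 and 2.49 CPM in EST + BAP libraries and 0, 0.328 and 0.537 CPM in EST libraries, which are 188 counts against 26, a ratio of 7.43 with a counting interval of 4.92 to 11.7, and a log2 fold change of 2.86 ± 0.63 without a test. For bHLH39, the neighbour of bHLH38, the values were 5.77, 7.52 and 6.82 CPM in EST + BAP libraries and 4.69, 13.1 and 4.30 CPM in EST libraries, so that the groups overlapped through EST replicate 2. Its log2 fold change was -0.13, with a 95% interval from -1.0 to 0.74, and without EST replicate 2 it was 0.58 (adjusted p = 0.0157). bHLH101 had a log2 fold change of 0.67 (interval 0.06 to 1.28, adjusted p = 0.0672), and of 1.01 without EST replicate 2 (adjusted p = 0.00882).

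FIT fell, and both of its targets were low. FIT had 4.71, 4.41 and 5.07 CPM in EST + BAP libraries and 30.6, 34.5 and 35.3 CPM in EST libraries, a log2 fold change of -2.84 ± 0.09 (adjusted p = 1.34e-06). IRT1 had 0.235, 0.399 and 0.787 CPM in EST + BAP libraries and 33.5, 34.8 and 78.0 CPM in EST libraries, which are 42 counts against 4581. Its log2 fold change of -6.74 ± 0.49 was the lowest among the members and is given without a test. FRO2 had 1.33, 1.09 and 1.01 CPM in EST + BAP libraries and 25.9, 27.0 and 61.1 CPM in EST libraries (-5.06 ± 0.41, adjusted p = 2.36e-05). For all 3 genes the groups lay far apart, and EST replicate 3 was the highest library for IRT1 and FRO2. All 5 calls of this comparison were kept in each of the 6 fits without 1 library.

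Cell type markers also differed between these groups. The summed root hair and epidermis markers were 10.096 to 23.4 CPM in EST + BAP and 9.15 to 17.8 CPM in EST, with 2 of 7 called lower and none higher. Summed cambium markers were 216 to 248 CPM in EST + BAP and 102 to 105 CPM in EST, with 3 of 3 called higher, and those of green tissue were 264 to 309 CPM in EST + BAP and 471 to 729 CPM in EST, with 3 of 3 called lower. Periderm and suberin markers were 546 to 621 CPM in EST + BAP and 259 to 462 CPM in EST, with 2 of 4 called higher, 1 of 3 endodermis markers was higher, and of 4 phloem markers 1 was higher and 1 lower. In bulk samples fewer cells of a type and less RNA per cell cannot be told apart, and the part of these cell types in the members' changes was not tested.

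**Figure D2:**
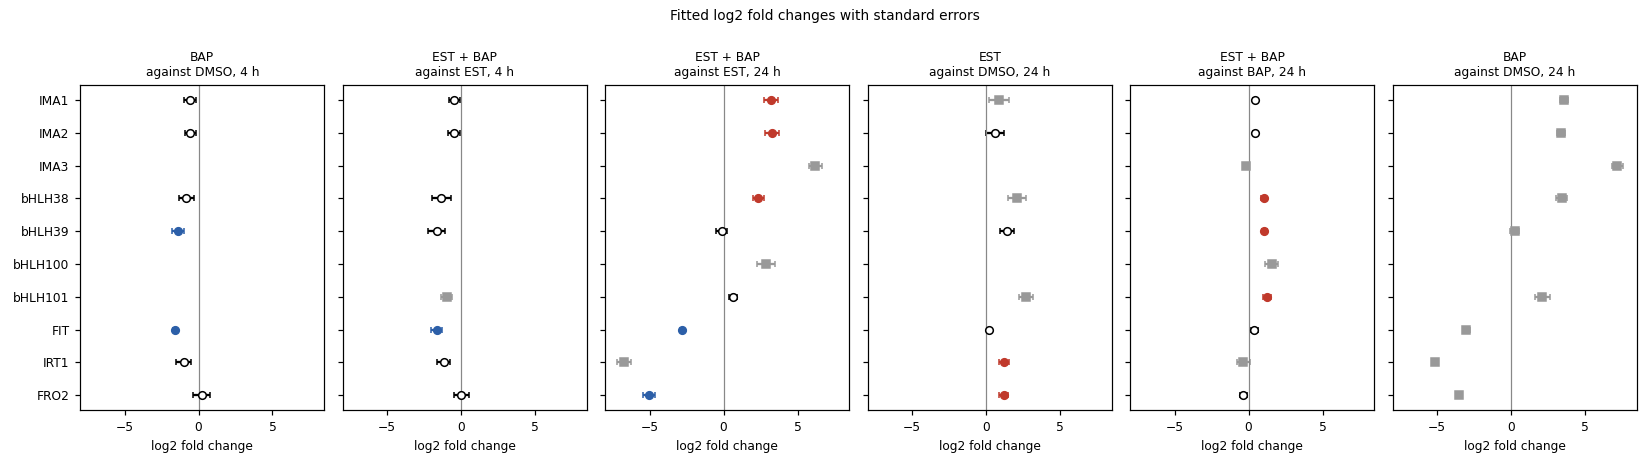
Log2 fold changes of the 10 genes in 6 comparisons, with standard errors as bars, red circles for genes called higher, blue circles for genes called lower, open circles for genes not called and grey squares for values given without a test. In EST + BAP against EST at 24 h the IMA genes lie between 3.20 and 6.21 and FIT, IRT1 and FRO2 between -6.74 and -2.84, and rows without a marker are genes too low to be fitted.

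For BAP alone at 24 h the members are described without a test, because this contrast chose IMA3. IMA3 had 12.5, 15.8 and 10.6 CPM in BAP libraries, against 0, 0.142 and 0.041 CPM in DMSO libraries. These were 835 counts against 5, a ratio of 158 (95% interval from counting error 67.4 to 488). The log2 fold change was 7.17 ± 0.37 for IMA3, 3.57 ± 0.25 for IMA1, 3.36 ± 0.26 for IMA2, 3.43 ± 0.37 for bHLH38, 2.10 ± 0.52 for bHLH101 and 0.24 ± 0.32 for bHLH39. IRT1 had 0.576, 0.582 and 0.634 CPM in BAP libraries and 25.5, 16.4 and 22.2 CPM in DMSO libraries (-5.15 ± 0.23), and the values were -3.51 ± 0.19 for FRO2 and -3.02 ± 0.21 for FIT. bHLH100 was too low to be fitted, with 44 counts in BAP libraries and 6 in DMSO libraries (ratio 6.93, interval 2.94 to 19.9). The median over the 9 members fitted was 2.10, with -0.02 over all genes. Of 4 periderm and suberin markers 3 were higher (306 to 470 CPM in BAP and 217 to 300 CPM in DMSO), and 3 of 3 green tissue markers were lower (136 to 210 CPM in BAP and 482 to 591 CPM in DMSO). Of 7 root hair and epidermis markers 1 was higher and 2 lower, with 12.4 to 19.1 CPM in BAP and 9.97 to 14.4 CPM in DMSO. Among 3 cambium markers 1 was higher (356 to 447 CPM in BAP and 239 to 283 CPM in DMSO). One list, endodermis, had 1 of 3 higher, and phloem had 1 of 4 lower. These marker calls are edgeR calls, where 3669 of the 20832 genes tested were called higher and 3591 lower. The part of these cell types in the members' changes was not tested.

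With EST and BAP together, all 7 IMA and subgroup Ib bHLH genes lay above DMSO at 24 h and FIT, IRT1 and FRO2 below it, again as a description. The log2 fold changes were 6.99 for IMA3, 4.49 for bHLH38, 4.28 for bHLH100, 3.99 for IMA1, 3.79 for IMA2, 3.36 for bHLH101 and 1.3 for bHLH39, against -2.63 for FIT, -3.88 for FRO2 and -5.52 for IRT1. This comparison shares its DMSO libraries with the previous one. Standard errors ran from 0.10 for FIT to 0.38 for bHLH100, and the median of the members was 3.57, with -0.006 over all genes. All 4 periderm and suberin markers were called higher, as were 1 of 3 endodermis and 1 of 5 xylem markers. All 3 green tissue markers were lower. Of 4 phloem markers 3 were lower and 1 higher, and of 7 root hair and epidermis markers 2 were lower and 1 higher. The part of these cell types was not tested.

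EST alone raised the uptake genes at 24 h. IRT1 was higher by 1.22 ± 0.32 (adjusted p = 0.0242) and FRO2 by 1.18 ± 0.32 (adjusted p = 0.0267), with 33.5 to 78.0 CPM of IRT1 in EST libraries and 16.4 to 25.5 CPM in DMSO libraries. These were 2 of the 5 members tested, where 6.26% of genes were called higher, and no member was called lower. The values of the members not called were 1.44 for bHLH39 (adjusted p = 0.0559), 0.58 for IMA2 and 0.21 for FIT.

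The other subgroup Ib genes were low in DMSO at 24 h. bHLH101 had 1.00, 1.74 and 0.907 CPM in EST libraries and 0.276, 0.248 and 0.081 CPM in DMSO libraries, which are 116 counts against 11 (ratio 6.61, counting interval 3.56 to 13.6), and the groups did not overlap. bHLH38 had 0.949, 2.72 and 0.907 CPM in EST libraries and 0.827, 0.212 and 0.324 CPM in DMSO libraries, which are 144 counts against 20 (ratio 4.51, counting interval 2.81 to 7.60). Both passed the filter through EST alone, as did IMA1, and their log2 fold changes are given without a test, at 2.69 ± 0.49 for bHLH101, 2.10 ± 0.62 for bHLH38 and 0.87 for IMA1. IMA3, with 14 counts in EST libraries and 5 in DMSO libraries, and bHLH100, with 26 in EST libraries and 6 in DMSO libraries, were too low to fit.

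The calls in EST against DMSO at 24 h rested on few libraries. Without DMSO replicate 2 or without DMSO replicate 3 no member was called, and IRT1 and FRO2 had adjusted p values of 0.0728 to 0.0951. Without DMSO replicate 1, the library with most ribosomal RNA, both stayed called. Without EST replicate 1 or EST replicate 3, bHLH39 was called as well (adjusted p = 0.0409 and 0.0382). Summed cambium markers were 102 to 105 CPM in EST and 239 to 283 CPM in DMSO (3 of 3 called lower), phloem markers 85.4 to 87.1 CPM in EST and 148 to 176 CPM in DMSO (3 of 4 called lower), and periderm and suberin markers 259 to 462 CPM in EST and 217 to 300 CPM in DMSO (1 of 4 called higher). Their part in the result was not tested.

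With BAP present, EST raised 3 of the subgroup Ib bHLH genes at 24 h. bHLH38 had 8.87, 7.58 and 6.86 CPM in EST + BAP libraries and 4.40, 3.95 and 3.27 CPM in BAP libraries (log2 fold change 1.02 ± 0.15, adjusted p = 0.00111). bHLH39 had 5.77, 7.52 and 6.82 CPM in EST + BAP libraries and 2.88, 4.2 and 2.58 CPM in BAP libraries (1.07 ± 0.19, adjusted p = 0.00279). bHLH101 was higher by 1.25 ± 0.28 (adjusted p = 0.00807), and for each of these genes every EST + BAP library lay above every BAP library. These 3 were called of 7 members tested, where 11.6% of genes were called higher. bHLH100 passed the filter through EST + BAP alone, with 188 counts against 44 in BAP (ratio 2.91, counting interval 2.09 to 4.14, no test). IMA1 (0.42, adjusted p = 0.00901) and IMA2 (0.43, adjusted p = 0.0222) stayed under the fold cut-off. FIT (0.40) and FRO2 (-0.37) did not pass, and IRT1 (-0.36) and IMA3 (-0.19 ± 0.18) are given as values only. Without BAP replicate 2, IMA2 (0.54, adjusted p = 0.0115) and FIT (0.74, adjusted p = 0.0206) were called higher as well.

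Cell type markers differed widely between these groups too. Of 4 periderm and suberin markers 3 were called higher (summed 546 to 621 CPM in EST + BAP and 306 to 470 CPM in BAP), as were 4 of 5 xylem markers (356 to 372 CPM in EST + BAP and 217 to 243 CPM in BAP) and 2 of 3 green tissue markers (264 to 309 CPM in EST + BAP and 136 to 210 CPM in BAP). Of 3 cambium markers 2 were lower (216 to 248 CPM in EST + BAP and 356 to 447 CPM in BAP), and of 4 phloem markers 3 were lower and 1 higher (87.3 to 104 CPM in EST + BAP and 133 to 135 CPM in BAP). None of 7 root hair and epidermis markers was called. The part of these cell types in the result was not tested.

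The BAP effect in EST plants differed between 24 h and 4 h for 5 of the 8 members tested, by a test added once the data had been examined. IMA1, IMA2 and bHLH38 had a more positive and IRT1 and FRO2 a more negative BAP effect at 24 h, where 3.12% and 2.40% of all genes passed in these directions (edgeR, adjusted p of at most 0.05). IMA3 and bHLH100 passed the filter through EST + BAP at 24 h alone and were not tested. Among the markers, 1 of 3 cambium genes passed in the positive direction and 1 of 4 periderm and suberin genes in the negative one.

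The interaction of EST and BAP at 24 h is given as a description. Its log2 term was lowest for IRT1 (-1.60 ± 0.84), FRO2 (-1.57 ± 0.57), bHLH101 (-1.45 ± 0.60) and bHLH38 (-1.11 ± 0.65), and lay between -0.99 and 0.18 for the other 6 members. The median was -0.68, and 0.23 without EST replicate 2.

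Around these members, 60 other iron genes were followed in 7 groups by role. After 4 h of BAP, 1 of the 50 tested was called higher and 13 lower than in DMSO (9.64% and 7.14% of all genes), with a median log2 fold change of -0.34 over the 52 fitted, against -0.01 over all genes. Lower were the metal transporter NRAMP1 (-1.49 ± 0.10, adjusted p = 0.000407), the nicotianamine synthase NAS2 (-1.74 ± 0.24, adjusted p = 0.00257), the iron exporter IREG1 (-1.53 ± 0.18) and the vacuolar transporter IREG2 (-1.32 ± 0.14). MYB10, a factor that activates nicotianamine synthase genes, was higher (0.59 ± 0.14, adjusted p = 0.0196). EST + BAP against EST at 4 h gave 2 higher and 11 lower of 51 (4.16% and 3.39% of all genes).

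At 24 h, 5 of the 50 tested were called higher and 25 lower in EST + BAP than in EST (16.5% and 13.8% of all genes), with a median of -0.47 over the 54 fitted (-0.0034 over all genes). All 10 upstream regulators and E3 ligases were tested and 6 were called lower, among them bHLH11 (-1.87 ± 0.13), BTSL2 (-0.87 ± 0.08) and BTSL1 (-1.04 ± 0.10), and none was called higher. In root uptake and coumarin secretion, 3 of 7 were lower, with NRAMP1 at -2.13 ± 0.10 (adjusted p = 2.74e-06) and the proton pump gene AHA2 at -1.0 ± 0.08, and 2 were higher. NAS2 (-4.13 ± 0.37) was lower as well, whereas OPT3, which loads iron into the phloem (1.45 ± 0.29, adjusted p = 0.00299), and NAS4 (1.18 ± 0.22) were higher. Of 11 vacuolar and intracellular transporters 6 were lower and none higher, with VTL5 at -4.08 ± 0.15 and IREG2 at -1.99 ± 0.18. Of the 4 ferritins, which store iron, FER1 alone was called (-1.18 ± 0.23, adjusted p = 0.00271).

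EST alone at 24 h gave 7 called higher and none lower of 50 (6.26% and 8.96% of all genes). Higher were the zinc and iron transporter IRT3 (1.92 ± 0.12, 41.1 CPM in EST and 10.7 CPM in DMSO), the citrate exporter FRD3 (2.02 ± 0.22), bHLH25 (2.20 ± 0.34), a FIT partner, and the E3 ligase gene BTS (0.69 ± 0.14). In EST + BAP against BAP at 24 h, 14 of 49 were called higher (11.6% of all genes) and only BGLU42 lower (11.8% of all genes), with IRT3 at 1.35 ± 0.16 and FRD3 at 1.09 ± 0.24.

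**Figure D3:**
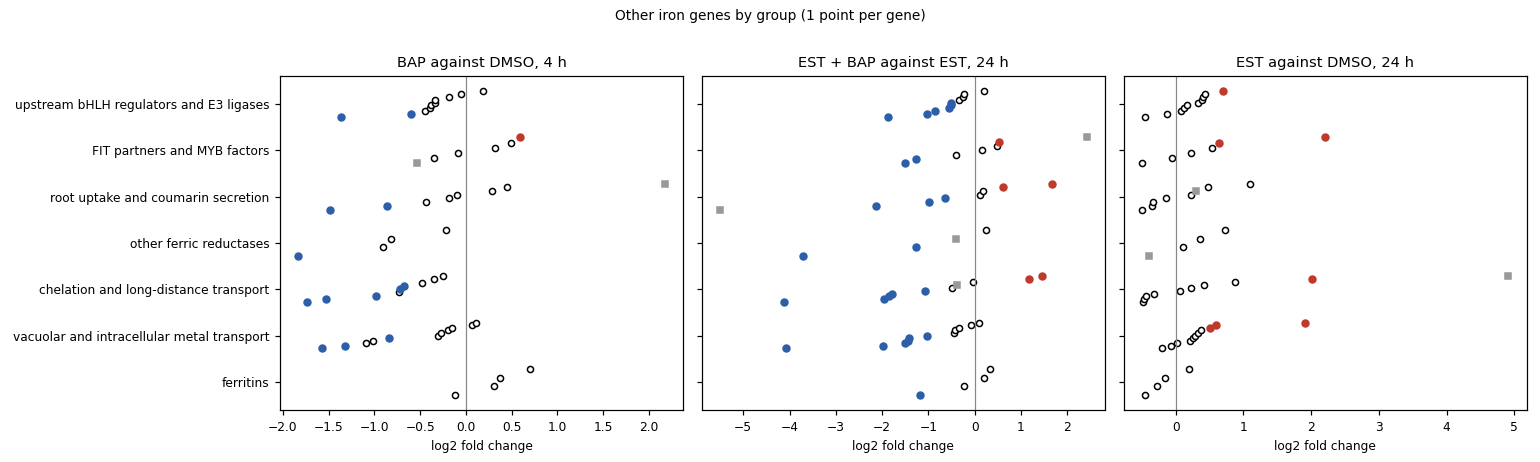
Log2 fold changes of the other iron genes by role in 3 comparisons, 1 point per gene, filled red where called higher, filled blue where called lower, open where not called and grey squares where given without a test. With 24 h of BAP on top of EST 25 of the 30 called genes lie left of 0, and with EST alone at 24 h all 7 called genes lie right of it.

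The genes whose levels followed IMA3 most closely over the 24 libraries were the protein kinase gene CIPK17 (AT1G48260, Pearson r 0.950), AT1G47405 (0.947), the transporter gene UMAMIT8 (AT4G16620, 0.943), the cysteine protease gene CEP1 (AT5G50260, 0.939) and the metacaspase gene MC9 (AT5G04200, 0.934), out of 22445 genes on a log2 CPM scale. The points are 3 libraries from each of 8 groups, so the values describe likeness only. They include the BAP and DMSO libraries of 24 h that chose IMA3. Outside BAP and EST + BAP at 24 h, IMA3 had at most 11 counts per library. A high r thus mostly reflects a difference between those groups and the rest. AT1G47405 is annotated as a pseudogene 3193 bases downstream of IMA1, and held 46 counts in EST + BAP and 26 in BAP at 24 h, against 2 in EST and 2 in DMSO. It had at most 3 counts per library at 4 h, so its rank rests on low counts. CIPK17 averaged 16.1 ± 2.3 CPM in EST + BAP, 15.1 ± 1.7 in BAP, 6.37 ± 0.97 in EST and 4.39 ± 0.58 in DMSO at 24 h (SD, n = 3). Among the members, r with IMA3 was 0.894 for bHLH38, 0.866 for bHLH100, 0.847 for IMA2, 0.78 for IMA1, 0.726 for bHLH101 and 0.516 for bHLH39, against -0.80 for FIT, -0.695 for IRT1 and -0.417 for FRO2. Within the 12 libraries of 24 h it was 0.961 for IMA1, 0.968 for IMA2, 0.864 for bHLH38 (rank 1020), 0.788 for bHLH100, 0.565 for bHLH101 and 0.253 for bHLH39, and -0.952, -0.956 and -0.942 for FIT, IRT1 and FRO2. In those 12 libraries only UMAMIT8 of the 5 genes stayed among the first 5, and all 5 had r of at least 0.952.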

How the data were processed

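Root RNA of 24 libraries was measured by ribosome-depleted, stranded RNA-seq. Per the labels and methods, the authors trimmed reads with Trimmomatic 0.36 and ran Kallisto 0.43.0 on AtRTD2. The deposited values are the authors' estimated counts, added up by gene, whole and unnormalized. The strand option is not given in the sources used here, and AXR3 counts hold the native gene and the transgene. Of 34212 genes, 33437 matched TAIR10.1.

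From these expected counts, edgeR 4.0.16 (R 4.3.3) was run on all genes with TMM, filterByExpr (minimum count 10) and the quasi-likelihood test, on the 6 libraries of each pair of groups, or the 12 of a time for interactions. P-values were adjusted by Benjamini-Hochberg over all genes. Calls needed an absolute log2 fold change of 0.5 and an adjusted p of 0.05, and in interactions the adjusted p alone. Genes of the lists that passed the filter through a single group (all its libraries at the minimum, and no other group so) got no test and no call, a rule added after values were seen. The shares over all genes include such genes. CPM (counts scaled to library size) uses TMM over all 24 libraries. Intervals on count ratios are exact at 95% and cover counting error only. Where groups are said not to overlap, this describes the libraries shown, and the share of all genes that do so was not counted.

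The members and gene lists were chosen with earlier results of these data known. Named are the 10 members, called genes of the iron list by smallest adjusted p (up to 4 per group), the 5 genes most like IMA3, and treatment checks. OPT3 and NAS4 in EST + BAP against EST at 24 h, and the test of the BAP effect between times, were chosen after values were seen. Replicate numbers were checked as pairs by the correlation of deviations from group means, taken from the counts since the sources name only repeats: every pair exceeded 0.1 in 6 of 10 comparisons, with r of 0.106 to 0.396. Alternatives were DESeq2 1.42.0, its size factors, no filter, the block, 1 fit per time, organelle and ribosomal RNA genes left out, and each library left out. In simulated data, 200 genes had a log2 change of 1. For BAP against DMSO at 4 h, 162 were recovered beside 21 false calls (21345 genes in all). For EST + BAP against EST at 24 h, 175 were recovered beside 28 false calls (21298 genes in all). In both, false calls were a larger share of all calls than the adjusted p cut-off aims at. Recovery was not broken down by expression level, so it does not speak for thinly counted members. At 4 h, bHLH38 for instance had 4 to 10 counts in BAP libraries and 11 to 15 in DMSO libraries.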

Additional observations from a re-analysis of the deposited data

Results flagged for a closer look

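The effect of BAP in plants given EST differed between the times for 5 of 8 members tested, by an interaction of BAP and time over the 12 EST + BAP and EST libraries that was chosen after the data were seen (edgeR, adjusted p over 22143 genes, 3.12% of which were called higher and 2.40% lower). The difference, 24 h minus 4 h, was a log2 value of 3.63 for IMA1 (adjusted p = 0.0179), 3.73 for IMA2 (adjusted p = 0.0162) and 3.67 for bHLH38 (adjusted p = 0.0204). It was -5.58 for IRT1 (adjusted p = 0.00369) and -5.10 for FRO2 (adjusted p = 0.00437). For FIT, which was already lower at 4 h, it was -1.21 (adjusted p = 0.120). The values of bHLH39 (1.50, adjusted p = 0.292) and bHLH101 (1.63, adjusted p = 0.0577) did not pass either. Leaving out 1 library gave 3 to 6 members, with 3 without EST + BAP 24 h replicate 2. The call of IMA1 was lost without EST + BAP 24 h replicate 2 (adjusted p = 0.0518), and that of bHLH38 without EST + BAP 24 h replicate 2 or EST + BAP 4 h replicate 2 (adjusted p = 0.0512 and 0.0505). bHLH38 was thinly counted at 4 h, with 8, 11 and 13 counts in EST + BAP libraries and 20, 48 and 9 in EST libraries. Time and experiment cannot be told apart here.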

How the results depend on the processing

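Of 352 tested values of single members under alternatives other than leaving out a library, 341 kept their direction and side of the threshold, and 228 of 228 values given without a test stayed within 1 standard error. The number of members called in BAP against DMSO at 4 h was 1 with all 12 libraries of the time in 1 fit, against 2, and 1 to 4 without 1 library. In EST + BAP against DMSO at 4 h it was 2 with DESeq2 and 2 with the replicate block, against 1, and 0 to 2 without 1 library. In EST + BAP against EST at 4 h it was 3 with DESeq2 and 3 with the block, and 0 to 2 without 1 library. Without 1 library it was 0 to 3 in EST against DMSO at 24 h, against 2, 5 to 7 in EST + BAP against EST at 24 h, against 5, and 3 to 5 in EST + BAP against BAP at 24 h, against 3. With all 12 libraries of 24 h in 1 fit, bHLH39 lost its call in EST + BAP against BAP (1.07, adjusted p = 0.0514). In EST against DMSO that fit called bHLH39 higher (1.44, adjusted p = 0.0220). The BAP effect in EST differed between the times for 3 to 6 members, against 5. The block moved no other count of calls by more than 1.5 times, and added bHLH39 (adjusted p = 0.00204) in EST against DMSO at 24 h. The median of the members in BAP against DMSO at 24 h was 1.76 to 2.71 without 1 library, and that of the interaction at 24 h was -1.07 to 0.23, with the sign turned without EST replicate 2, as for IMA3 (range -2.26 to 0.59). bHLH39 in EST + BAP against EST at 24 h ranged from -0.40 to 0.58, and IMA1 in EST against DMSO at 24 h from -0.37 to 1.25, and both also turned without that library. The cause was not tested. The members are thinly counted where they are low: IMA3 and bHLH100 had at most 7 and 3 counts per library at 4 h, so no fold can be given there. The correlation with IMA3 within the 4 h libraries was not run, since IMA3 was near 0 in them.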
